A study of Macaca mulatta with 5 samples.

Results

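Broad proximal diff (c17) is a cluster of kidney epithelial cells that the study named as differentiating toward the proximal end of the nephron, the filtering unit of the kidney. Its members were taken by that name from a table with a row per cell, in the libraries whose numbers match the sample titles. This gave 2158 cells of 36039, or 527 and 336 cells in libraries 600 and 628 and 495, 700 and 100 cells in libraries 623, 627 and 632. All were cortex-enriched kidney cells of fetal Macaca mulatta, the rhesus macaque, from the late second or the third trimester, with no genetic change or treatment given in the labels. Libraries 600 and 628, called dissected, came from cortex cut out by hand from 2 donor kidneys and digested cold. Libraries 623, 627 and 632, called vortexed, came from kidneys vortexed in a cold B mix of Bacillus licheniformis, a step meant to free cells of the cortex. The labels give no age or sequencing batch per library, and these and the preparation cannot be told apart. The table also holds human cells and other rhesus libraries. How its cluster names were made is not described in the labels or the processing notes. Only the 5 matched rhesus libraries were used, so the balance between species was not analysed here.

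The nephron forms from progenitors of the cap mesenchyme, which turn into epithelium and pass through the renal vesicle and the S-shaped body before the segments become distinct. Cells of the proximal segment take up filtered solutes and proteins, and precursors of this segment start to show proximal genes while still carrying genes of the earlier stage. Of the 4 genes used to mark such cells, JAG1 encodes a Notch ligand of the forming nephron and HNF4A a transcription factor needed for proximal tubule differentiation. CUBN and LRP2 encode cubilin and megalin, the endocytic receptors of the proximal tubule. The table held 0 columns of gene values, so none of these markers could be checked, and c17 is named here as the study named it. Sequencing depth per cell is unknown for the same reason, and the precision of each share is limited by the number of cells, 2553 to 10502 per library.

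As a share of all cells, c17 made up 7.71% of library 600 (exact 95% binomial interval 7.08 to 8.36) and 5.31% of library 628 (4.77 to 5.89), the dissected pair. Among the vortexed libraries it made up 5.04% of library 623 (4.62 to 5.49), 6.67% of library 627 (6.20 to 7.16) and 3.92% of library 632 (3.198 to 4.74). The order of the libraries from high to low was 600, 627, 628, 623 and 632. The intervals of neighbours in this order overlapped for all pairs except 627 and 628. These intervals cover counting error only. The mean was 5.73% ± 1.48 (SD, n = 5), which ranked c17 as number 6 of 37 clusters by mean share, and between number 4 and number 9 within single libraries.

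The share of c17 varied less between libraries than that of most clusters. Its highest share was 1.97 times its lowest. The SD of its log2 odds (the share set against all other cells, on a log2 scale) was 0.40, against a median of 0.96 over the 37 clusters. Only Epithelial (c23) and Proximal tubule (c8), at 0.23 and 0.40, had a smaller SD. Small clusters also carry more counting error, but among the 15 clusters of at least 1000 cells only 1, Proximal tubule (c8), was steadier. Several clusters of other nephron stages varied more between the extreme libraries. The highest share was 3.91 times the lowest for Differentiated NPC (c19), 2.13 times for Proximal tubule (c18) and 2.34 times for Cap mesenchyme (c30). For NPC (c25), the cluster of self-renewing progenitors, it was 32.6 times, and its SD was the largest of the 37 clusters. The difference in steadiness between clusters was not tested.

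Set against nephron-lineage cells alone (13 clusters from the progenitors to the podocytes and tubules), c17 made up 11.4% and 9.06% after dissection (libraries 600 and 628), against 8.53%, 14.5% and 8.03% after vortexing (libraries 623, 627 and 632). Library 627 rather than 600 was then the highest, and the preparations overlapped. For comparison, c17 and the Differentiated NPC clusters c14 and c19 were grouped here as 3 early nephron clusters, a grouping made from their names. Within this group the c17 share was 38.5% and 40.0% after dissection and 48.4%, 62.6% and 36.9% after vortexing. In library 627 c17 was thus the larger part of this group, and in the other 4 libraries the smaller. NPC (c25) is in the lineage denominator and made up 0.760% and 13.4% of all cells after dissection, against 24.8%, 8.82% and 1.18% after vortexing. Without it, the c17 share of the lineage was 11.5% and 11.8% after dissection, against 14.7%, 17.9% and 8.23% in libraries 623, 627 and 632.

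**Figure D1:**
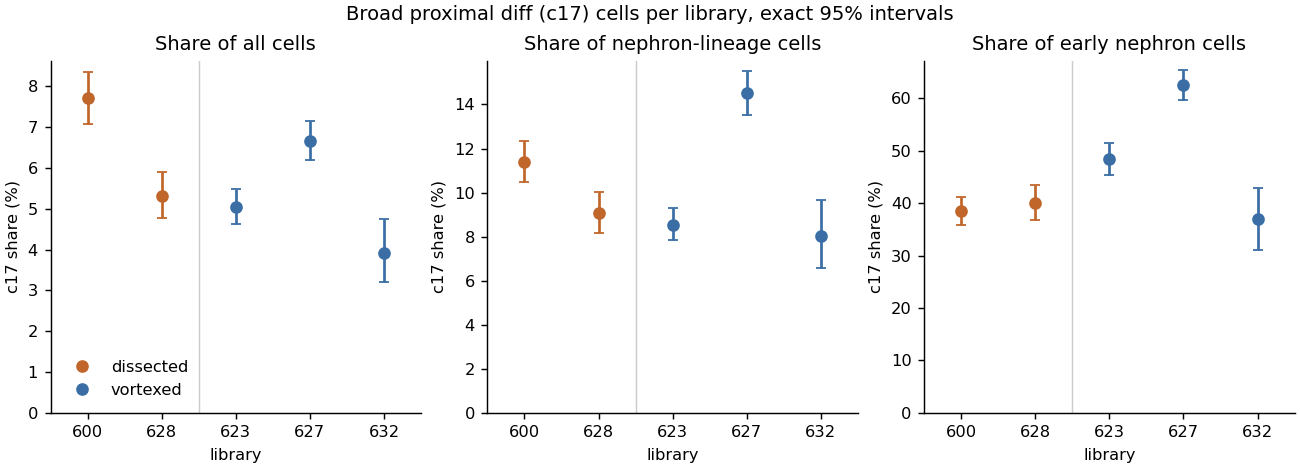
Share of c17 (vertical axes, percent) in each library (horizontal axes), of all cells, of nephron-lineage cells and of early nephron cells; points are single libraries, dissected left of vortexed, and bars are exact 95% binomial intervals. Library 600 is highest of all cells at 7.71%, and library 627 is highest of lineage and early nephron cells at 14.5% and 62.6%.

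Cells of the clusters named for the formed segment, Proximal tubule, outnumbered c17 in 5 of 5 libraries. There were 0.374 and 0.303 c17 cells per cell of the 4 Proximal tubule clusters after dissection (libraries 600 and 628), against 0.310, 0.372 and 0.156 after vortexing (libraries 623, 627 and 632). The values of 4 libraries lay close together, and library 632 lay below them. The mean log2 ratio was -1.79 ± 0.52 (SD, n = 5), a geometric mean of 0.290 c17 cells per proximal tubule cell. An exact two-sided sign-flip test over 32 sign patterns gave p = 0.063, the smallest that 5 libraries allow, and 0.25 after Benjamini-Hochberg adjustment over the 4 ratios tested. This test therefore could not pass a threshold of 0.05 in this design. It set c17 against 4 clusters added together, so the negative sign depends in part on how many were summed. Against single clusters, c17 was on average more frequent than c6, c7 and c8 (mean log2 ratios 2.43, 0.39 and 0.41). It was higher in 4 of 5 libraries for each of these, and on average less frequent than c18 (-0.62). The excess of tubule cells rested in part on Proximal tubule (c18), without which the mean log2 ratio was -0.85 ± 0.75 (exact two-sided sign-flip test, p = 0.125). Against the other 3 tubule clusters together, c17 was the less frequent in 4 of 5 libraries, and in library 627 its 700 cells outnumbered the 581 cells of those clusters.

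The 4 Proximal tubule clusters did not stand in a fixed proportion to c17. Proximal tubule (c18), which held 45.9% ± 13.9 of the tubule cells, was more frequent than c17 in 5 of 5 libraries. There were 0.881 and 0.913 c17 cells per c18 cell after dissection, against 0.811, 0.537 and 0.334 after vortexing (libraries 623, 627 and 632). Each dissected value was above each vortexed value. A split by preparation, in either direction, was seen in the ratio to 7 of the 34 clusters found in every library (20.6%). The other 3 tubule clusters taken singly were mostly less frequent than c17. Per cell of Proximal tubule (c7) there were 1.19 and 1.54 c17 cells after dissection, against 1.03, 2.76 and 0.730 after vortexing. Per cell of Proximal tubule (c8) the values were 1.61 and 0.896 after dissection, against 1.22, 2.29 and 1.02 after vortexing. Proximal tubule (c6) was the least even of the 4, with 12.9 and 2.29 c17 cells per c6 cell after dissection and 4.90, 33.3 and 0.943 after vortexing. Library 627 had the most c17 cells per cell of c6, c7 and c8, and it also had the largest part of its tubule cells in c18, 69.2%.

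**Figure D2:**
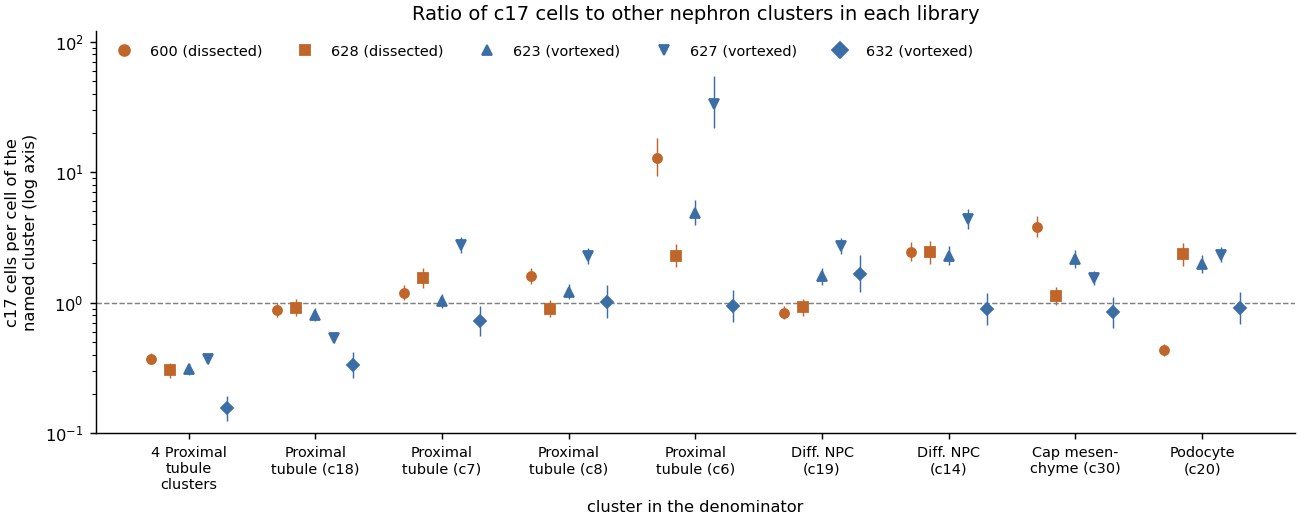
Number of c17 cells per cell of the named cluster (vertical axis, log scale) for proximal tubule, early nephron, progenitor and podocyte clusters (horizontal axis); each point is a library with its exact 95% interval, dissected left of vortexed, and the dashed line marks equal numbers. All 5 libraries lie below the line for the 4 Proximal tubule clusters together and for c18, and library 632 is the lowest for the 4 clusters together at 0.156.

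Against the earlier stages, c17 had no fixed excess. Relative to the Differentiated NPC clusters, by their name progenitors that have differentiated, there were 0.625 and 0.668 c17 cells per cell after dissection, against 0.939, 1.67 and 0.585 after vortexing (libraries 623, 627 and 632). The mean log2 ratio was -0.28 ± 0.63 (exact two-sided sign-flip test, p = 0.375, adjusted p = 0.5). The sign came from adding both clusters together, since c17 was on average more frequent than c14 alone (mean log2 ratio 1.15 ± 0.82, higher in 4 of 5 libraries) and than c19 alone (0.49 ± 0.69, higher in 3 of 5). Per c14 cell there were 2.46 and 2.43 c17 cells after dissection and 2.29, 4.35 and 0.901 after vortexing. Per c19 cell there were 0.838 and 0.921 after dissection and 1.59, 2.71 and 1.67 after vortexing, so that each dissected library lay below each vortexed library. Such a split was seen in the ratio to 7 of 34 clusters (20.6%).

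Relative to Cap mesenchyme (c30), the condensed progenitors at the ureteric tip, there were 3.82 and 1.12 c17 cells per c30 cell after dissection, against 2.17, 1.55 and 0.847 after vortexing (libraries 623, 627 and 632). The cap exceeded c17 in library 632 alone, and the mean log2 ratio of 0.72 ± 0.85 did not pass (exact two-sided sign-flip test, p = 0.1875, adjusted p = 0.375). With NPC (c25) added to the cap, the mean turned to -0.85. Podocytes, the filtering epithelium of the glomerulus, were 1213 and 143 after dissection and 251, 300 and 109 after vortexing. There were 0.434 and 2.35 c17 cells per podocyte after dissection, against 1.97, 2.33 and 0.917 after vortexing. The mean log2 ratio was 0.42 ± 1.07 (exact two-sided sign-flip test, p = 0.5, adjusted p = 0.5). The ratio in library 600 was the lowest, where podocytes were most numerous.

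The protocols set hand dissection against vortexing. The c17 share averaged 6.51% ± 1.69 after dissection (SD, n = 2) and 5.21% ± 1.38 after vortexing (n = 3), and the groups overlapped, since vortexed library 627 lay above dissected library 628. In limma fitted to the log2 odds of all 37 clusters, the log2 odds ratio of c17 was 0.35 (SE 0.66, 95% interval -1.20 to 1.89, limma adjusted p = 0.836). No cluster passed: 0 of 37 (0%) had an adjusted p below 0.05 in limma, and 5 of 37 (13.5%) an unadjusted p below 0.05, c17 not among them. The interval spans changes of more than 2-fold in either direction, so a moderate difference between the preparations was not detectable with these libraries.

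Of all clusters, 11 of 37 (29.7%) had shares that did not overlap between preparations, and c17 was not 1 of them. The c17 share of lineage cells differed by -0.133 percentage points, with 10.2% ± 1.64 after dissection and 10.4% ± 3.598 after vortexing (exact permutation test over 10 splits, two-sided, p = 1, smallest possible 0.1). This difference turned to 1.02 points without library 628 and 1.94 points without library 627. The log2 ratio of c17 to proximal tubule averaged -1.57 ± 0.21 after dissection and -1.93 ± 0.66 after vortexing (difference 0.36, exact permutation p = 0.8, two-sided). Without library 632 this difference was -0.011, and with c18 left out of the tubule clusters it was -0.048. Ratios to single clusters were split by preparation in 7 of the 34 clusters found in every library (20.6%), c18 and c19 among them. Both had been singled out after their values were seen, and as described the c17 cells per c18 cell were higher, and the c17 cells per c19 cell lower, after dissection. The labels name 2 donor kidneys for the dissected libraries but do not say whether the 5 libraries come from separate animals, so these p-values measure only the spread between libraries, which may be technical.

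The table also gives each cell a position in the authors' UMAP embedding, a flat layout in which cells with similar profiles tend to lie together and whose axes have no unit. Positions and cluster names come from the same gene values, so what follows is description with no test. Pooled over the libraries, the c17 cells had 2 peaks along the first axis, at -1.125 and 3.125. The second peak was sought no nearer than a set distance above the first. The cells were divided at 1.375 on that axis, the middle of the emptiest stretch between the peaks. This gave a main patch of 1456 cells and a second patch of 702 cells, which takes in all c17 cells above that value. Each of the 5 libraries had cells in both patches, but peaks within single libraries were not examined. The emptiest stretch, 0.25 units wide, held 13 cells, against 172 and 78 at the peaks, and 78 of the 2158 cells lay within 0.5 units of the dividing value.

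The second patch held 32.6% of the c17 cells of library 600 (exact 95% interval 28.6 to 36.8) and 27.4% of library 628 (22.7 to 32.5). It held 28.9% in vortexed library 623 (24.9 to 33.1), 36.3% in library 627 (32.7 to 40.0) and 41.0% in library 632 (31.3 to 51.3). The mean was 33.2% ± 5.55, and the preparations overlapped. Counting the main patch alone, c17 made up 5.19% and 3.86% of all cells after dissection, against 3.59%, 4.25% and 2.31% after vortexing. There were then 0.252 and 0.220 main-patch c17 cells per proximal tubule cell after dissection, against 0.220, 0.237 and 0.0922 in libraries 623, 627 and 632. Library 632 was the lowest by both counts.

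**Figure D3:**
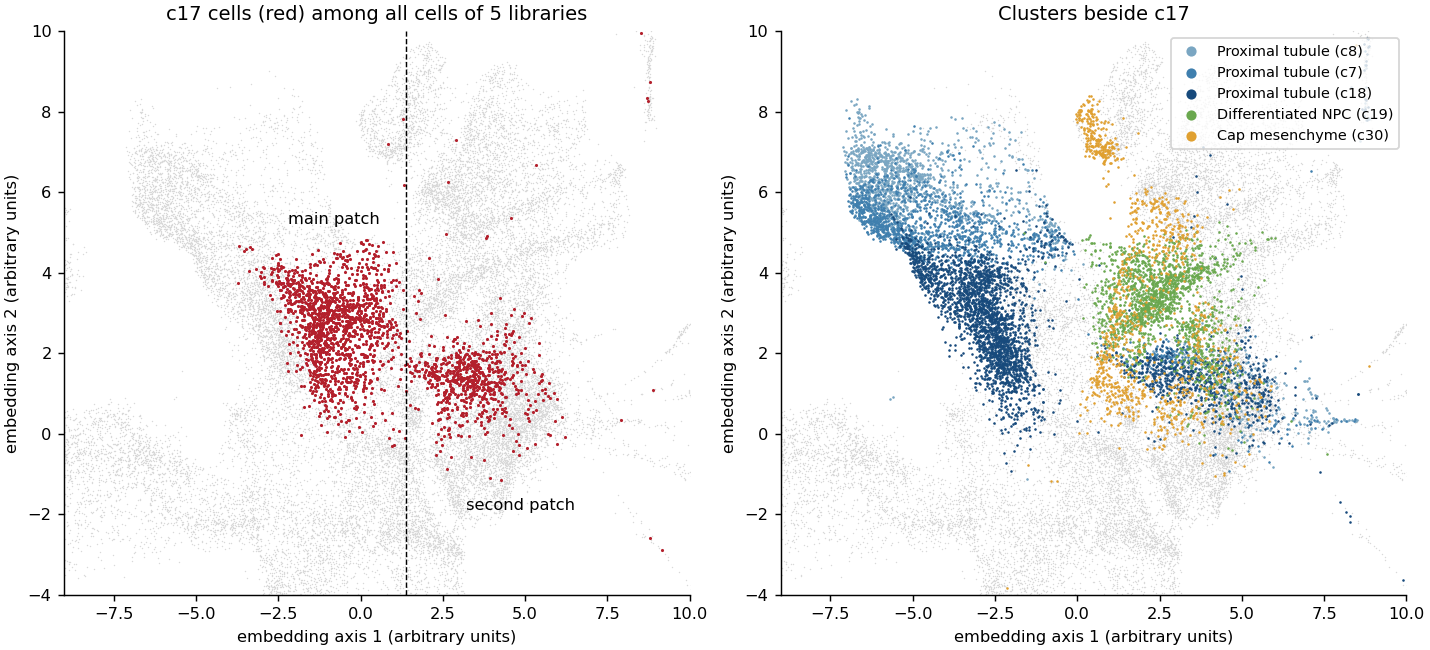
Positions of cells of the 5 libraries in the authors' embedding (both axes in arbitrary units); grey points are all cells, red points at left are c17 with the dashed line at 1.375 dividing its patches, and colours at right are 5 clusters beside it. The window leaves out 8 of the 2158 c17 cells; the main patch lies between c18 and c19, and the second patch lies where several clusters overlap.

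Around c17, the cells with other names were mainly proximal tubule, followed by early nephron and progenitor cells. For each c17 cell, the 15 closest cells that carried another name in its own library were taken, leaving out the 3 clusters named for a cell cycle phase. Proximal tubule clusters made up 60.1% ± 3.97 of these neighbours (SD, n = 5 libraries), against a mean of 24.1% of all the cells that could have been neighbours. Counts of libraries above or below a share compare each library with its own possible neighbours. Proximal tubule was above in 5 of 5 libraries. Most of this was c18, at 51.3% ± 6.05 against 11.4%. Proximal tubule (c7) added 7.14% ± 3.04 against 5.49%, above that share in 4 of 5 libraries, while Proximal tubule (c8) was below its share in 5 of 5, at 1.30% ± 1.18 against 5.34%. Differentiated NPC (c19) made up 15.8% ± 10.4 against 5.60%, and Cap mesenchyme (c30) 12.6% ± 5.79 against 4.54%, both above their share of the possible neighbours in 5 of 5 libraries. The other clusters of these classes were below theirs in 5 of 5 libraries, with 2.15% ± 1.75 against 12.7% for NPC (c25) and 0.450% ± 0.226 against 3.24% for Differentiated NPC (c14). Early nephron as a class made up 16.3% ± 10.5 against a mean of 8.84%, above the library's own share in 5 of 5. Progenitors made up 14.8% ± 5.96 against a mean of 17.2%, above the library's own share in 3 of 5. Progenitors outnumbered early nephron cells among the neighbours in libraries 627 and 632, with 20.9% against 8.52% and 19.9% against 7.87%. Stroma made up 5.26% ± 1.54 against 22.5%.

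The libraries differed in which early cells lay beside c17. Differentiated NPC (c19) made up 33.1% and 17.04% of the neighbours after dissection (libraries 600 and 628), against 13.2%, 8.34% and 7.53% after vortexing (libraries 623, 627 and 632). Its share of all cells had the same order, with 9.20% and 5.77% after dissection and 3.17%, 2.46% and 2.35% after vortexing, and the part of this abundance in the neighbour values was not tested. Cap mesenchyme (c30) made up 6.07% and 11.8% of the neighbours after dissection, against 8.30%, 17.5% and 19.5% in libraries 623, 627 and 632. Its share of all cells was 2.02% and 4.72% after dissection, against 2.32%, 4.30% and 4.62% after vortexing. The part of this abundance was not tested either.

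Seen from the other side, c17 was the most frequent neighbour of c18 in 5 of 5 libraries. Of the closest differently named cells around c18, c17 made up 48.0% ± 12.8, from 35.9% in library 632 to 65.4% in library 627. Proximal tubule (c7) came next with 22.9% ± 10.96, and in library 600 it was nearly level with c17, at 37.3% against 37.8%. The c17 cells made up 18.0% ± 5.48 of the neighbours of Cap mesenchyme (c30) and 17.6% ± 8.26 of those of Differentiated NPC (c19). Among the clusters named for a cell cycle phase, c17 made up 13.7% ± 3.71 of the neighbours of G2-M phase (c29). For M-phase (c27) it was 11.3% ± 3.84 and for G2-M phase (c28) 10.9% ± 6.34. The other phase clusters were left out of the possible neighbours here, and c17 made up a mean of 6.72% of those kept. Of the neighbours of Proximal tubule (c7), c17 made up 7.32% ± 0.54. This was near 6.72%, its mean share of all cells not named for a phase, the c7 cells themselves included. Where the phase clusters were kept among the possible neighbours of c17, they made up 6.38% and 9.09% after dissection, against 11.8%, 19.99% and 4.53% after vortexing. Their share of the possible neighbours was 5.86% and 14.5% after dissection, against 16.8%, 29.4% and 5.22% after vortexing. Their share among the neighbours was below their share of the possible neighbours in 4 of 5 libraries, all except 600.

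Across the main patch the neighbours ran from tubule on one side to early nephron and progenitor cells on the other. The patch was divided into 4 sections along the first axis with the same number of cells each over all libraries, and section 1 lay on the side of c18. In section 1, 99.0% ± 1.04 of the differently named neighbours were proximal tubule, and in section 2, 98.1% ± 1.81. In section 3 the tubule share was 67.5% ± 5.67, with 16.2% ± 8.46 early nephron and 14.2% ± 6.55 progenitors. In section 4 it was 12.3% ± 7.46, with 48.0% ± 23.8 early nephron and 37.7% ± 22.5 progenitors.

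In each library, the tubule share was higher in sections 1 and 2 than in section 3, and higher in section 3 than in section 4. In section 4 the highest tubule share of any library was 23.9%, in library 632, and in section 3 the lowest was 62.4%, in library 628. The early cells of section 4 differed between libraries, and progenitors outnumbered early nephron cells there in libraries 627 and 632, with 62.8% against 33.7% and 56.5% against 19.2%. In dissected libraries 600 and 628, c19 made up 81.9% and 48.5% of the neighbours there and c30 8.24% and 33.9%. In vortexed library 623 they made up 56.6% and 21.8%, in library 627 33.7% and 60.9%, and in library 632, with 17 cells in this section, 19.2% and 56.5%. In the whole of libraries 627 and 632, c30 cells also outnumbered c19 cells, with 452 against 258 and 118 against 60. In libraries 600, 628 and 623 they were fewer, with 138 against 629, 299 against 365 and 228 against 311. The part of this abundance in the values of section 4 was not tested. Single cells with both kinds of neighbour, proximal tubule and early nephron or progenitor, made up 40.0% ± 6.91 of the main patch. Of its cells 47.1% ± 9.03 had only proximal tubule neighbours, and 7.38% ± 6.28 had only early nephron or progenitor neighbours.

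**Figure D4:**
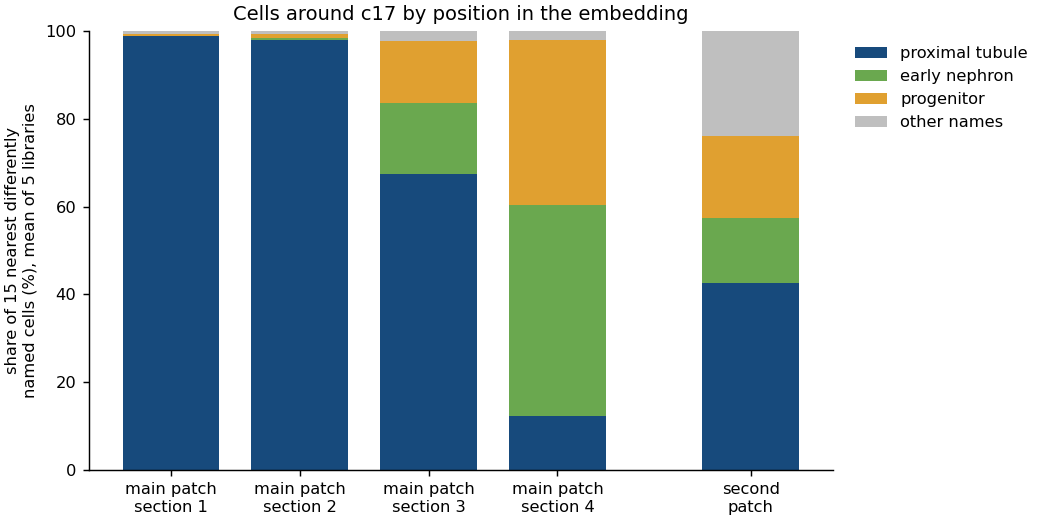
Share of the 15 nearest differently named cells of c17 (vertical axis, percent, mean of 5 libraries) by class of name, for 4 sections of the main patch along the first embedding axis and for the second patch (horizontal axis). Proximal tubule makes up 99.0% in section 1 and 12.3% in section 4, and the second patch mixes all classes with 42.7% proximal tubule.

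The second patch lay among cells of many names. Of the differently named neighbours there, 42.7% ± 5.64 were proximal tubule, 18.8% ± 5.86 progenitors, 14.7% ± 8.54 early nephron and 14.3% ± 3.51 stroma. Set against the possible neighbours of the same library, proximal tubule was above its share in 5 of 5 libraries, early nephron in 4 of 5 and progenitors in 3 of 5. Stroma was below its share in 5 of 5. The mean shares of these 4 classes among the possible neighbours were 24.1%, 8.84%, 17.2% and 22.5%. By cluster, c18 made up 31.9% ± 8.56, c30 14.5% ± 5.25, c19 13.2% ± 8.08, c7 8.81% ± 5.996 and Fibroblast (c26), a stromal cluster, 6.27% ± 1.67. The mean for c26 was near its mean share of the possible neighbours, 5.64%, and the value was above the library's own share in 3 of 5 libraries. Epithelial (c23) made up 4.22% ± 1.30, above its share of 2.10% in 5 of 5 libraries. Both tubule and early or progenitor neighbours were found for 81.2% ± 4.85 of the cells, where any neighbour of each kind among the 15 sufficed. The share that cells at random positions would give was not computed for either patch. Among the 15 nearest cells of any name, a second-patch cell met 5.90 ± 0.64 different names on average, against 2.25 ± 0.24 for a main-patch cell, and the libraries of the patches did not overlap (5.30 to 6.80 against 2.01 to 2.56).

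Cells of the same name were correspondingly sparse in the second patch. Of the 15 nearest cells of any name, c17 made up 33.1% and 23.6% around second-patch cells after dissection (libraries 600 and 628), against 18.4%, 25.04% and 18.0% after vortexing (libraries 623, 627 and 632). Around main-patch cells it made up 78.7% and 67.1% after dissection, against 69.5%, 70.2% and 53.3% after vortexing. Over both patches the own-name share was 53.3% ± 9.01, which ranked c17 number 15 of the 34 clusters with at least 20 cells in a library, between podocytes at 89.6% and Monocyte (c34) at 24.5%. Library 632 also held the fewest cells, and how far cell number sets its low own-name share was not tested. In all, 146 of the 2158 c17 cells (6.77%) had no c17 cell among their 15 nearest, and 106 of these were on the side of the second patch.

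**Figure D5:**
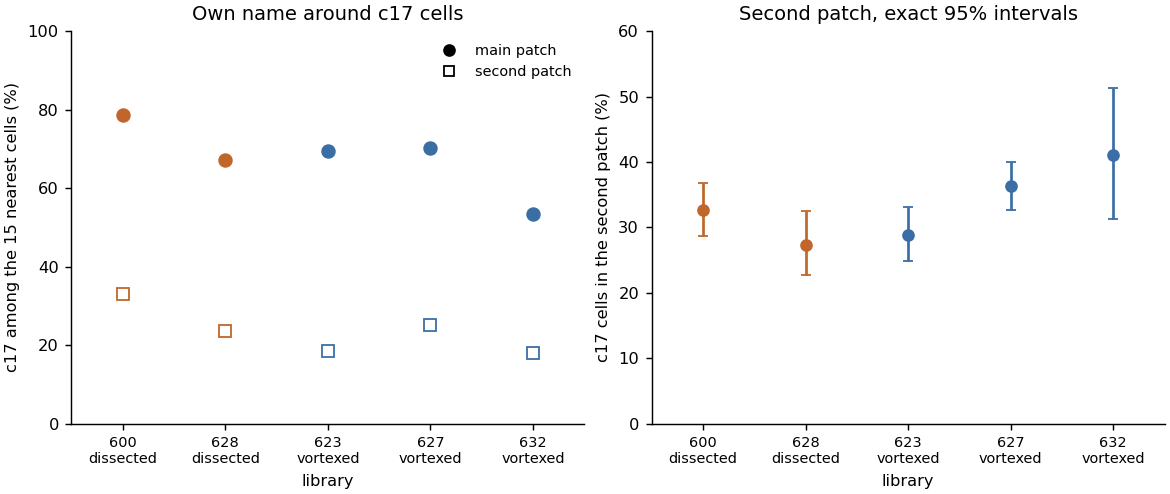
At left, the share of c17 among the 15 nearest cells of a c17 cell (vertical axis, percent) by library, filled circles for the main patch and open squares for the second patch; at right, the percentage of c17 cells in the second patch with exact 95% intervals, dissected libraries left of vortexed. Each main-patch value, 53.3% or more, is above each second-patch value, 33.1% or less.

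The area of the second patch was shared with many other clusters. Taken as the middle 90% of its c17 cells along each axis, it held 3645 cells, 10.1% of all, with 32 of the 37 cluster names, 8 of them with 3 cells or fewer. By library it held 9.26% and 9.12% of the cells after dissection, against 6.96%, 14.3% and 9.91% in libraries 623, 627 and 632. The c17 cells made up 15.9% of the area. Some lineage clusters had more than that 10.1% of their cells there, with 21.3% of Cap mesenchyme (c30), 19.5% of Differentiated NPC (c19), 16.2% of Proximal tubule (c18) and 12.1% of Proximal tubule (c7). Others had less, with 5.60% of Differentiated NPC (c14), 4.64% of NPC (c25), 3.37% of Proximal tubule (c8) and 2.64% of Proximal tubule (c6). Clusters outside the lineage classes were also above it, with 18.0% of Epithelial (c23), 13.8% of Fibroblast (c26) and 12.7% of Interstitial cell lineages (c22). The corresponding value for c17, 26.8%, was fixed by the way the area was drawn. With no counts or gene values per cell in the table, neither depth nor doublets could be set beside these positions, and their part in the second patch was not tested.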

How the data were processed

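The authors made the libraries with the 10x Genomics 3' version 3 chemistry, per the labels' protocols. The submitters' processing notes list Cell Ranger 6.0.1, Seurat and hg19 without saying what each was used for; filters, doublets, integration and clustering are not described in these sources. The deposited table holds a cluster name, a library, a species and 2 embedding positions per cell, the positions being a score in arbitrary units, per the file headers. Its 58227 rows from 11 other library names were not analysed here.

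Cells were counted with Python 3.11.15, pandas 2.3.3 and scipy 1.17.1, and shares have exact (Clopper-Pearson) 95% intervals. Clusters of 10 or more cells entered limma 3.58.1 (R 4.3.3) on log2 odds after adding 0.5 cells, adjusted by Benjamini-Hochberg. This step was run on simulated data with large changes and a smaller spread between libraries than most clusters had here. That run does not show how the step performs at the spread of these libraries. Ratios were compared by exact sign-flip and exact permutation tests. Full cell identifiers were unique (0 repeats in 36039), and 143 of 35896 barcodes occurred in more than 1 library, including those of 17 c17 cells.

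The cluster, the classes and the tests were chosen with earlier results of these data known, and the patches, sections and own-name shares after the positions were seen. Clusters named were c17, the Proximal tubule, Differentiated NPC, Cap mesenchyme, NPC and Podocyte clusters, those making up at least 5% of the neighbours of c17, and those of whose neighbours c17 made up at least 10%. Extremes, second-patch neighbours and the clusters named in its area were picked after their values were seen.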

Additional observations from a re-analysis of the deposited data

Results flagged for a closer look

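Library 632 stood apart in the ratio of c17 to the 4 Proximal tubule clusters. Its log2 ratio was -2.68, and the gap to the next library was 0.760 of the range over the 5 libraries, above the limit of 0.71 for 5 values. The same cells as a share of c17 and proximal tubule together gave 13.5%, with a gap of 0.712 of the range. Both values describe the same counts, 100 c17 cells and 640 proximal tubule cells. The 5 libraries were taken as 1 set for this check, since the preparations hold only 2 and 3. Of the 18 c17 measures checked, these 2 passed the limit, and chance alone passes it in about 1 of 20 sets. Without library 632 the mean log2 ratio was -1.56.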

How the results depend on the processing

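No paired analysis was possible because the labels do not say which libraries, if any, come from the same animal. The c17 share by preparation (log2 odds ratio 0.35) kept its direction in the 14 alternatives and stayed short of the threshold in those tested, from 0.021 with lineage cells as the denominator to 0.64 without library 628, although the plain share of lineage cells differed the other way, by -0.133 points (-1.99 without c25), so this direction depends on the scale and the denominator. As a plain share of all cells it was 1.30 percentage points with both patches counted and 1.14 with the main patch alone. Leaving out 1 library gave 0.062 to 0.64 for the log2 odds ratio, -1.29 to 1.94 points for the share of lineage cells, -0.011 to 0.61 for the tubule ratio by preparation, -1.88 to -1.56 for the tubule ratio, -0.53 to -0.15 for Differentiated NPC, 0.42 to 0.96 for the cap, 0.22 to 0.83 for podocytes and 59.2% to 61.5% for tubule among neighbours. With a single dissected library left, limma assumes that it varies like the others. Without c18 the tubule ratio was -0.85. Turned directions were 1.15 with c14 alone and 0.49 with c19 alone for Differentiated NPC, -0.85 with NPC (c25) added to the cap, and -0.048 for the tubule ratio by preparation without c18; the first 3 follow from which clusters are summed, and the cause of the last was not tested. The share of lineage cells by preparation (-0.133 points) turned to 1.02 without library 628 and 1.94 without library 627. Restricting c17 to the main patch, chosen after seeing the data, gave a mean log2 tubule ratio of -2.37, lower than -1.79 because fewer c17 cells are counted, and a tubule share of neighbours of 68.7%, against 42.7% for the second patch and 60.1% for both. With 5 or 50 neighbours, or with the phase clusters kept, that share moved by less than 1 SD over libraries. The number of libraries, 5, limits every comparison: no sign-flip test could go below 0.063.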
